A study of Mus musculus with 6 samples.

Results

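Eicosanoids are signalling lipids made from arachidonic acid, and 10 genes for their synthesis were followed here by symbol among the 55401 genes of the table. They are the cyclooxygenase genes Ptgs1 and Ptgs2, the prostaglandin E synthase genes Ptges, Ptges2 and Ptges3, the thromboxane synthase gene Tbxas1, and the leukotriene genes Alox5, Alox5ap, Lta4h and Ltc4s. All 10 were found and all 10 passed the filter on low counts. The RNA came from macrophages grown from the bone marrow of C57BL/6 mice in M-CSF at 40 ng/mL with 10% serum for 7 days. Of the 6 libraries, 3 carry the genotype label wild type (WT) and 3 the label Mettl3-/- (KO). Mettl3 is the methyltransferase gene behind most N6-methyladenosine in messenger RNA. The labels do not say how Mettl3 was deleted, whether a library came from its own mouse or culture, or which treatment followed the culture. The p-values therefore measure only the spread between these libraries, which may be technical.

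Macrophages release arachidonic acid from membrane phospholipids with phospholipase A2 enzymes. The cyclooxygenases turn it into prostaglandin H, from which separate synthases make prostaglandin E, prostaglandin D, prostacyclin or thromboxane. In the other branch the lipoxygenase encoded by Alox5, helped by the membrane protein encoded by Alox5ap, makes leukotriene A, which Lta4h or Ltc4s products convert to the chemoattractant leukotriene B or to leukotriene C.

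The libraries held 67280390 to 77997742 estimated counts. Mettl3 (chromosome 14, 52294841 to 52305128, minus strand of mm10) did not follow the genotype label: its FPKM was 2.62, 2.91 and 2.26 in WT and 2.504, 2.56 and 2.93 in the libraries labelled KO. FPKM is the fragment count scaled for transcript length and library size. On the log2 scale Mettl3 differed by 0.02 (SE 0.11), which did not pass the test (edgeR adjusted p = 0.93), and its sign turned to -0.066 when WT replicate 3 was left out and to -0.055 when KO replicate 3 was. Directions are therefore given for the libraries labelled KO. A call means an adjusted p (Benjamini-Hochberg, 16256 tested genes) under 0.05 from the quasi-likelihood test of edgeR. All 10 macrophage markers were above 1 FPKM in every library. Of these markers, 4 were called higher (Csf1r, Fcgr1, Mertk and C1qa) and 2 lower (Adgre1 and Lyz2), beside 7.01% and 5.67% of all tested genes. The summed level of the 10 markers was 17440 to 17787 FPKM in WT and 9837 to 9949 in the libraries labelled KO. Most of it was the lysozyme gene Lyz2, at 14037 to 14431 and 5943 to 6066 FPKM. These levels differ between the groups, and their part in the results that follow was not tested.

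The levels of the 10 genes spanned a wide range, from Alox5ap at a mean of 260.3 FPKM over the 6 libraries to Alox5 at 0.235 FPKM. Alox5ap stood above 99.2% of all tested genes and Alox5 above 16.0%. Between them, in order of mean FPKM, came Ptges3 (22.9), Tbxas1 (14.9), Lta4h (7.88), Ptgs1 (6.77), Ptges (3.22), Ptges2 (2.04), Ptgs2 (1.28) and Ltc4s (0.741). Neighbours in this order did not overlap in any library, except Ltc4s and Alox5, whose ranges were 0.306 to 0.959 and 0.170 to 0.331 FPKM. The deposited FPKM divides by about the length of all annotated exons of a gene together: the length it implies was 1.12 to 1.13 times that union for the 8 genes with at least 300 counts in each library. For Tbxas1 this union is 9094 bases, while the longest coding transcript has 1990 bases. For Lta4h the lengths are 6102 and 2029 bases. Per kilobase of the longest coding transcript, Tbxas1 moved above Ptges3 to second place, at 5433 against 2024 estimated counts, and the other 8 genes kept their ranks. Lta4h came close to Ptges3 on this scale, at 1887. Distances between genes in FPKM thus depend on the length used.

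**Figure D1:**
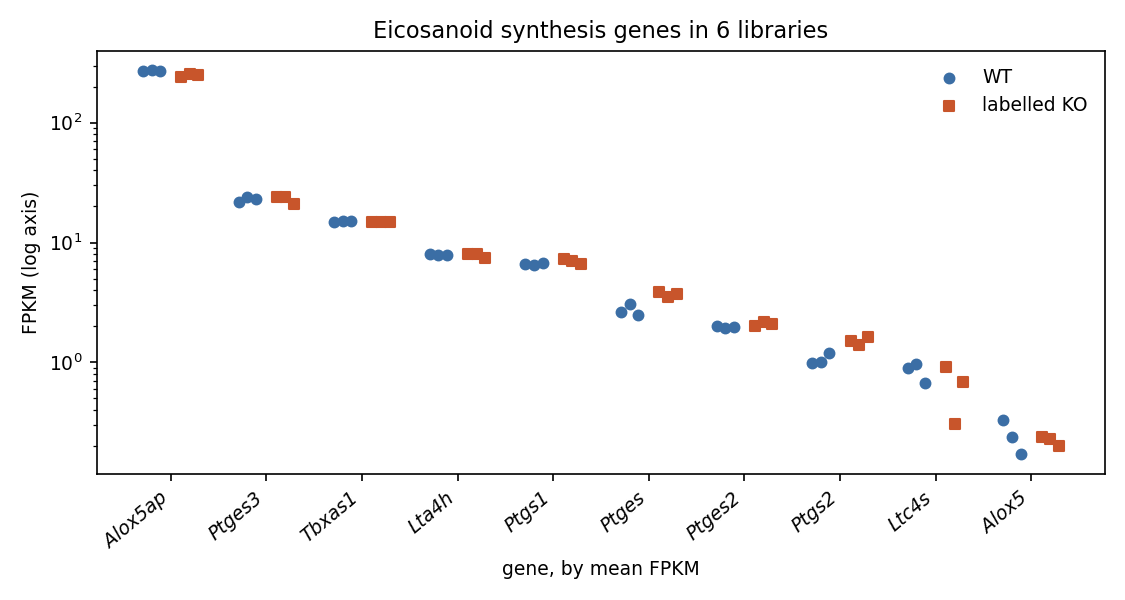
FPKM (log axis) of each of the 10 genes, ordered by mean level, with 1 point per library (circles WT, squares labelled KO). Alox5ap lies far above the rest, at 242 to 276 FPKM, and Ltc4s and Alox5 lie lowest.

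Of the 10 genes, Ptgs2 and Ptges rose and Alox5ap fell in the libraries labelled KO, and the other 7 did not pass the test. Over all tested genes 12.7% were called, 7.01% higher and 5.67% lower, and the 3 of 10 is given beside that share with no test of the set. The median log2 fold change of the 10 genes was -0.03, against -0.0049 over all tested genes. The same 3 genes were those whose FPKM did not overlap between the groups, a property of 33.8% of tested genes.

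**Figure D2:**
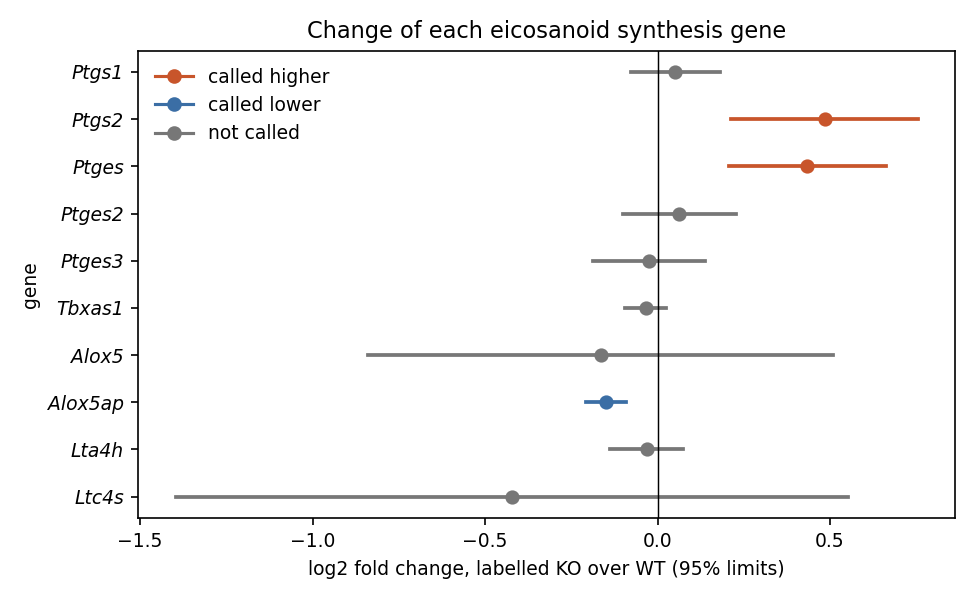
Log2 ratio of the libraries labelled KO to WT for each gene (points) with 95% limits from edgeR (lines), coloured by call. Ptgs2 and Ptges lie above 0 (0.48 and 0.43), Alox5ap lies below (-0.15), and the limits of the other 7 include 0, widest for Ltc4s.

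Ptgs2, which encodes the inducible cyclooxygenase COX-2, lies on chromosome 1 from 150100031 to 150108227 on the plus strand of mm10. It read 0.989, 1.01 and 1.19 FPKM in WT and 1.51, 1.39 and 1.61 in the libraries labelled KO. Every library labelled KO was above every WT library. The means were 1.06 ± 0.111 and 1.51 ± 0.111 FPKM (SD, n = 3 each), on 343 to 649 estimated counts per library. The libraries labelled KO were higher by 0.48 on the log2 scale (SE 0.11), with an edgeR adjusted p of 0.0381, a ratio of 1.40 with 95% limits of 1.16 and 1.69. The call was held without WT replicate 3 (edgeR adjusted p = 0.0388) but ended when WT replicate 1, WT replicate 2 or any KO replicate was left out (0.0638 to 0.120), with the log2 fold change staying between 0.43 and 0.57. It was also lost with no filter on low counts (edgeR adjusted p = 0.0628) and in limma on log2(FPKM + 0.1) (adjusted p = 0.0531). A fit with the replicate number as a block lost the call too (edgeR adjusted p = 0.0648).

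Ptgs1 encodes COX-1, the cyclooxygenase that most cells make without a stimulus, at chromosome 2, 36230426 to 36252272, plus strand. Its FPKM was 6.63, 6.48 and 6.71 in WT and 7.22, 7.02 and 6.56 in the libraries labelled KO. The groups overlapped, since KO replicate 3 was below WT replicates 1 and 3. Ptgs1 differed by 0.05 on the log2 scale (SE 0.054), not past the test (edgeR adjusted p = 0.612), with 95% limits of -0.08 and 0.18. Ptgs1 was the more abundant cyclooxygenase transcript in all 6 libraries. Ptgs2 made up 12.98%, 13.5% and 15.1% of the FPKM of both genes in WT and 17.3%, 16.6% and 19.8% in the libraries labelled KO. The means were 13.9% ± 1.10 and 17.9% ± 1.68 (SD, n = 3 each), a difference of 4.02 percentage points with no overlap between the groups. An exact two-sided permutation test of this share gave p = 0.1, the smallest value that 3 libraries against 3 allow.

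Ptges encodes the membrane-bound prostaglandin E synthase that is induced together with COX-2 in stimulated macrophages. Its position is chromosome 2, 30889471 to 30903297, minus strand. Its FPKM was 2.63, 3.04 and 2.49 in WT and 3.90, 3.52 and 3.74 in the libraries labelled KO, with no overlap. The means were 2.72 ± 0.285 and 3.72 ± 0.191 FPKM (SD, n = 3 each), on 755 to 1293 estimated counts. Ptges was higher by 0.43 on the log2 scale (SE 0.095), with an edgeR adjusted p of 0.0309, a ratio of 1.35 with 95% limits of 1.15 and 1.58. The call was held without WT replicate 2 (edgeR adjusted p = 0.0206) but ended when WT replicate 1, WT replicate 3 or any KO replicate was left out (0.0608 to 0.101), with the log2 fold change between 0.38 and 0.52. A fit with the replicate number as a block also lost the call (edgeR adjusted p = 0.101). Ptgs2 and Ptges thus had rises of similar size, and the difference between them was not tested.

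The sequence before the start of each of these genes is shown because both rose. They are the 250 bases upstream of the RefSeq start (GRCm38.p6), which coincides with the start of the gene in the deposited table, written 5′ to 3′ on the gene's strand. In GENCODE M21 the Ptges gene extends further upstream, to 30929863, and sequence before that start was not searched. Capitals mark matches on either strand to GGGCGG, the GC box, or GAGGAA, a core of the site of the macrophage factor PU.1.
Ptgs2, chr1:150099781-150100030, plus strand: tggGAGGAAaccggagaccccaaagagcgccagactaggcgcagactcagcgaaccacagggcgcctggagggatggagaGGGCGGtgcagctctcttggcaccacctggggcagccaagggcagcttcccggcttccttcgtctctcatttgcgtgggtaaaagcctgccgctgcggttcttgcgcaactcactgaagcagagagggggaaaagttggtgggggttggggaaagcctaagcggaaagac
Ptges, chr2:30903298-30903547, minus strand: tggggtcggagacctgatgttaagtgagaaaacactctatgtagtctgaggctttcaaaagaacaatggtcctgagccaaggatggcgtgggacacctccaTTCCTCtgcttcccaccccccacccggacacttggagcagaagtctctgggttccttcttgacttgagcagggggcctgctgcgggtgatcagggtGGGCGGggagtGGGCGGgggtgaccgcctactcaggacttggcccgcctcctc
Both windows held GGGCGG and GAGGAA, which occur in 32.7% and 23.3% of 32851 mouse promoter windows of the same length. The Ptgs2 window held GGGCGG once and GAGGAA once, and the Ptges window held GGGCGG at 2 places and GAGGAA at 1. Among the members that did not pass the test, Alox5 held both motifs, Ptgs1, Tbxas1 and Lta4h held GAGGAA, and Ptges3 held GGGCGG. For Tbxas1, Lta4h, Ptges3, Ptges2 and Ltc4s the RefSeq start is not the start of the gene in the deposited table. The window of Tbxas1, 38918736 to 38918985, lies inside the listed gene. Neither window of the genes that rose held TATAAA (in 12.4% of windows), TGACG (17.8%), CACGTG (6.02%), TGANTCA (6.75%) or the NF-kB motif (3.90%), all searched on both strands. Sequence on either side of these 250 bases was not searched, so a motif missing here may lie outside the window. TATAAA and TGANTCA were found in the window of Tbxas1, which did not pass the test, and CACGTG in that of Ptges2. Of the 10 genes 9 had a promoter in the RefSeq table, and Alox5ap did not.

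The other prostaglandin E synthase genes did not pass the test. Ptges2 encodes a second membrane-associated synthase (chromosome 2, 32395896 to 32405772, plus strand). It read 2.03, 1.93 and 1.99 FPKM in WT and 2.01, 2.19 and 2.10 in the libraries labelled KO, a difference of 0.06 on the log2 scale (SE 0.068) at an edgeR adjusted p of 0.629, with 95% limits of -0.10 and 0.23. Ptges3 encodes the cytosolic synthase p23, which is also a co-chaperone of Hsp90 (chromosome 10, 128058954 to 128077272, plus strand). It read 21.7, 24.02 and 23.3 FPKM in WT and 23.8, 23.9 and 20.9 in the libraries labelled KO, with overlapping groups. Ptges3 differed by -0.02 on the log2 scale (SE 0.067) at an edgeR adjusted p of 0.864, and its sign turned without WT replicate 2 (0.0086) or KO replicate 3 (0.032). Ptges3 shares 19.6% of the 50-base words of its transcripts with 2 other annotated genes, most with the pseudogene Ptges3-ps. That pseudogene had means of 30.1 FPKM in WT and 28.7 in the libraries labelled KO, on 1040 to 1196 estimated counts. The value of Ptges3, and its rank among the 10 genes, is therefore uncertain. Ptges supplied 9.96%, 10.5% and 8.99% of the FPKM of the 3 synthase genes in WT and 13.1%, 11.9% and 14.0% in the libraries labelled KO. These shares depend on the uncertain value of Ptges3.

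Tbxas1 encodes thromboxane A synthase, an enzyme known from platelets and macrophages (chromosome 6, 38875404 to 39084585, plus strand). It read 14.8, 15.1 and 15.1 FPKM in WT and 14.8, 14.9 and 14.8 in the libraries labelled KO. The spread was small, with SDs of 0.155 and 0.0988 FPKM, and the difference was -0.03 on the log2 scale (SE 0.025) at an edgeR adjusted p of 0.45. As a ratio, its 95% limits were 0.937 and 1.02.

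Alox5ap, which encodes the 5-lipoxygenase-activating protein FLAP, fell by a small amount. Its position is chromosome 5, 149264767 to 149288153, plus strand. Its FPKM was 272, 276 and 269 in WT and 242, 254 and 249 in the libraries labelled KO, and the highest library labelled KO was below the lowest WT library. The means were 272 ± 3.19 and 248 ± 6.02 FPKM (SD, n = 3 each), on 27701 to 31055 estimated counts. It fell by 0.15 on the log2 scale (SE 0.024), with an edgeR adjusted p of 0.0114, a ratio of 0.902 with 95% limits of 0.866 and 0.939. Leaving out each library in turn kept the call (edgeR adjusted p 0.0215 to 0.0436). Gm19719 on the opposite strand covers 13.3% of the exonic bases of Alox5ap, and had 55 to 150 estimated counts.

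**Figure D3:**
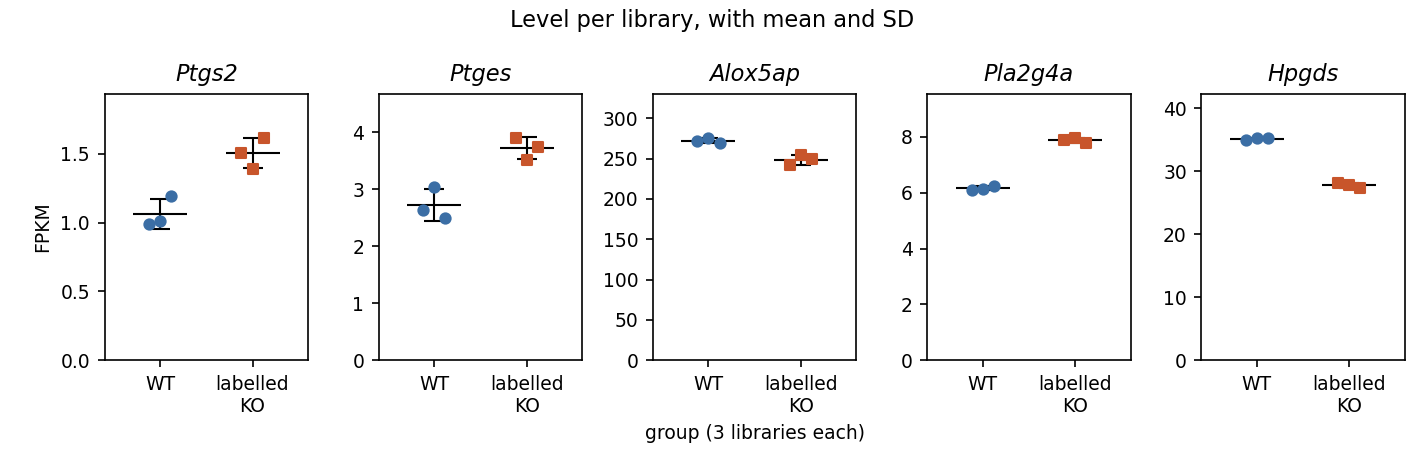
FPKM (linear axes from 0) in each library for the 3 called synthesis genes and for Pla2g4a and Hpgds, with bars for the mean and SD of 3 libraries. In each panel the WT points (circles) and those labelled KO (squares) do not overlap, and the Alox5ap panel has the smallest relative step.

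Alox5 itself, the lipoxygenase that FLAP serves, was the lowest of the 10 genes (minus strand of chromosome 6, 116410077 to 116461178). Its values were 0.331, 0.240 and 0.170 FPKM in WT and 0.240, 0.229 and 0.199 in the libraries labelled KO, on 55 to 105 estimated counts. The libraries labelled KO lay inside the WT range. Alox5 differed by -0.16 on the log2 scale (SE 0.28) at an edgeR adjusted p of 0.771, with 95% limits of -0.84 and 0.51, and its sign turned without WT replicate 1 (0.10). In WT replicates 1, 2 and 3, Alox5ap FPKM was 822, 1150.4 and 1583 times that of Alox5. In the libraries labelled KO it was 1009, 1109 and 1254 times as high, within the WT range.

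Of the enzymes that use leukotriene A, the hydrolase gene Lta4h was far above the synthase gene Ltc4s. Lta4h (plus strand of chromosome 10, 93453411 to 93484874) read 8.08, 7.80 and 7.87 FPKM in WT and 7.97, 8.09 and 7.46 in the libraries labelled KO. The groups overlapped, with a log2 difference of -0.03 (SE 0.044) at an edgeR adjusted p of 0.723 and 95% limits of -0.14 and 0.07. Ltc4s (minus strand of chromosome 11, 50236461 to 50238616) stood at 0.896, 0.959 and 0.676 FPKM in WT and 0.918, 0.306 and 0.690 in the libraries labelled KO, on 25 to 79 estimated counts. KO replicate 2 was the lowest, and the log2 difference of -0.42 (SE 0.41), at an edgeR adjusted p of 0.581, had limits of -1.40 and 0.55. Without KO replicate 2 the difference was -0.10, and without KO replicate 1 it was -0.76. Gm26542 on the opposite strand covers 26.4% of the exonic bases of Ltc4s, and had 0 to 23 estimated counts. Lta4h FPKM was 8.13 to 11.7 times that of Ltc4s in WT and 8.69 to 26.4 times in the libraries labelled KO. The size of this ratio depends on the length used. Per kilobase of the longest coding transcript, the means over the 6 libraries were 1887 and 85.7 estimated counts.

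Because the study concerns an RNA methylation enzyme, GGACT, 1 form of the sequence that Mettl3 is known to methylate, was counted in the longest coding transcript of each gene (GENCODE M21). The median over 21901 coding genes was 1.01 per kilobase. Alox5ap held 4 copies, or 3.20 per kilobase, more than 98.0% of coding genes, and Lta4h held 0. Ltc4s had 2.79 per kilobase, Tbxas1 2.01, Ptgs2 1.797, Alox5 1.77, Ptges3 1.5, Ptges 1.37, Ptges2 0.804 and Ptgs1 0.698. All 4 copies in Alox5ap and 5 of the 8 in Ptgs2 lay in the coding sequence, while the 5 in Ptges all lay after it. The first coding copies of the 2 called genes that have one are shown with their flanks, the motif in capitals, both in exon 2. Matches are a description of the sequence, and methylation was not measured in these libraries.
Ptgs2, chr1:150101050-150101070, plus strand: ctgtacccGGACTggattcta
Alox5ap, chr5:149272439-149272459, plus strand: gaggaccgGGACTcttgcctt

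Outside these 10, a list of 81 genes for arachidonate supply, other synthases, export, inactivation and receptors had 57 tested members, of which 6 rose, 7 fell and 44 did not pass, beside 7.01% higher and 5.67% lower over all tested genes; the lists were not tested as sets. Their median log2 fold change was 0.05. The other 24 were below the filter on low counts, and 14 of them were listed at 0 in every library.

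In the list for release and recycling of arachidonate, 3 of 23 tested genes rose and 2 fell (all tested genes: 7.01% and 5.67%). Pla2g4a encodes cytosolic phospholipase A2, the main supplier of arachidonic acid for eicosanoids. It read 6.10, 6.12 and 6.24 FPKM in WT and 7.89, 7.96 and 7.76 in the libraries labelled KO. The groups stood well apart, by 0.34 on the log2 scale (SE 0.035) at an edgeR adjusted p of 0.00212, and the call was held without any 1 library. Pla2g7, which encodes the platelet-activating factor acetylhydrolase, rose by 0.13 on the log2 scale (edgeR adjusted p = 0.000595), with means of 481 ± 0.202 and 533 ± 1.84 FPKM (SD, n = 3). Lpcat2, a lysophospholipid acyltransferase gene, rose from 62.5 ± 1.13 to 68.4 ± 1.02 FPKM (log2 fold change 0.11), a call held only without WT replicate 1 among the 6 fits with 1 library left out (edgeR adjusted p up to 0.0891). The genes that fell make or break down the arachidonate-carrying lipid 2-arachidonoylglycerol. Abhd12, a hydrolase gene, went from 75.4 ± 3.34 to 56.3 ± 5.89 FPKM (log2 fold change -0.44, edgeR adjusted p = 0.016), a call lost without WT replicate 1 or 3 (0.0584 and 0.0610). Dagla, a diacylglycerol lipase gene, fell from a low level, 0.479 to 0.268 FPKM (log2 fold change -0.85), a call lost in all fits with 1 library left out except that without WT replicate 3 (edgeR adjusted p up to 0.0768).

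Among the other synthases, Hpgds, which encodes the hematopoietic prostaglandin D synthase, was the 1 called gene of 6 tested (12.7% of all tested genes were called). It read 34.9, 35.3 and 35.2 FPKM in WT and 28.1, 27.8 and 27.4 in the libraries labelled KO, a fall by 0.36 on the log2 scale (SE 0.022) at an edgeR adjusted p of 0.000286. The groups were far apart relative to their spread, and the call was held without any 1 library. Ptgis, the prostacyclin synthase gene, and Ptgds, the other prostaglandin D synthase gene, were listed at 0 in all 6 libraries; both were named after their values were seen. Of 12 genes for other lipoxygenases and for enzymes that make or open fatty acid epoxides, 4 were tested. Alox15, Alox12b and Alox12e, also named after their values were seen, were listed at 0. Ephx1, the microsomal epoxide hydrolase gene, fell by 0.41 on the log2 scale (edgeR adjusted p = 0.0366), with means of 5.48 ± 0.265 and 4.16 ± 0.402 FPKM (SD, n = 3). Leaving out each library in turn ended this call in all 6 fits (0.0650 to 0.109).

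Among 14 tested genes for export and inactivation, 2 rose and 3 fell (all tested genes: 7.01% and 5.67%). Slco3a1, an organic anion transporter gene whose product carries prostaglandins, had the widest separation. It read 7.99, 8.05 and 7.73 FPKM in WT and 15.3, 14.8 and 16.0 in the libraries labelled KO, a rise by 0.94 on the log2 scale (SE 0.041) at an edgeR adjusted p of 7.29e-05. Every library labelled KO was thus near 15 FPKM, where WT was near 8 FPKM. Dpep2, a dipeptidase gene for the step from leukotriene D to leukotriene E, rose by 0.27 on the log2 scale (edgeR adjusted p = 0.00144), with means of 40.1 ± 0.0581 and 48.9 ± 1.10 FPKM (SD, n = 3). A second row with this symbol that overlaps it held 11 to 21 estimated counts. Abcc1, the exporter of leukotriene C, fell from 10.9 ± 0.188 to 9.55 ± 0.325 FPKM (log2 fold change -0.21, edgeR adjusted p = 0.0104). Ptgr1, a reductase gene for inactivation of prostaglandins and leukotriene B, fell from 11.1 ± 0.777 to 8.91 ± 0.181 FPKM (log2 fold change -0.34), and Cyp4f18, a leukotriene B hydroxylase gene, fell from 7.69 ± 0.830 to 5.68 ± 0.151 FPKM (-0.45). These last calls held in 1 of 6 fits with 1 library left out, that of Ptgr1 without WT replicate 2 and that of Cyp4f18 without WT replicate 3 (edgeR adjusted p up to 0.0684 and 0.0869).

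Of 10 tested receptor genes, 1 passed the test, close to the 12.7% of all tested genes, and it rose. Fpr2, a formyl peptide receptor gene that is also described as a receptor for lipoxin A, read 93.4, 96.7 and 96.5 FPKM in WT and 149.6, 150.3 and 143 in the libraries labelled KO. This was a rise by 0.61 on the log2 scale (SE 0.031) at an edgeR adjusted p of 0.000132. The groups were far apart, and the call was held without any 1 library. The receptor genes for prostaglandin E, prostacyclin and leukotrienes that follow were named after their values were seen, and none passed. The log2 fold changes were 0.15 for Ptger2, -0.33 for Ptger4, 0.22 for Ptgir, 0.40 for Ltb4r1 and -0.08 for Cysltr1 (edgeR adjusted p = 0.242, 0.273, 0.0642, 0.0875 and 0.225).

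**Figure D4:**
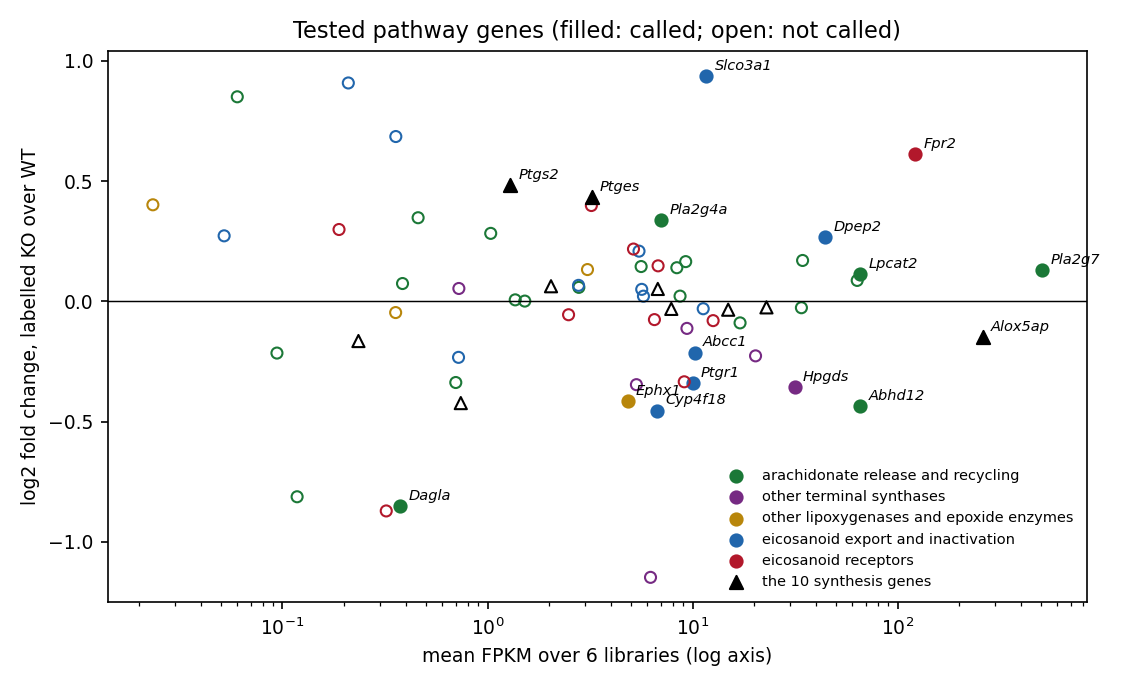
Log2 ratio of the libraries labelled KO to WT against mean FPKM (log axis) for the tested genes of the pathway, coloured by list, with triangles for the 10 synthesis genes and filled symbols for called genes. Slco3a1 and Fpr2 lie highest among called genes (0.94 and 0.61), and most open symbols lie near 0.

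Markers of other cell types were measured in the same libraries. In bulk RNA, fewer cells of a type and less RNA per cell cannot be told apart. The 11 mast cell and basophil markers were each below 1 FPKM in every library, with 5 at 0 (Fcer1a, Ms4a2, Tpsb2, Mcpt4 and Prss34) and sums of 1.05 to 1.24 FPKM in WT and 1.18 to 1.33 in the libraries labelled KO. Of 10 megakaryocyte and platelet markers, 8 were below 1 FPKM, with Gp5 at 0. Their sum, 178 to 185 FPKM in WT and 135 to 147 in the libraries labelled KO, was nearly all Pf4, a platelet factor gene that macrophages also express, which fell (log2 fold change -0.37, edgeR adjusted p = 0.00243). The 12 neutrophil markers summed to 115 to 120 FPKM (115.4 to 119.8) in WT and 129.8 to 139 in the libraries labelled KO. Of the 10 that were tested, 2 were called higher (Mmp8 and Mpo) and 1 lower (Ltf), beside 7.01% and 5.67% of all tested genes. Mpo and Ltf were named after their values were seen, and both were low. Mpo had means of 0.197 FPKM in WT and 0.553 in the libraries labelled KO, on 37 to 198 estimated counts. Ltf had means of 1.72 and 1.33 FPKM. Mmp8 was the largest entry of the neutrophil sum, at 52.3 FPKM in WT and 76.7 in the libraries labelled KO. S100a9, a calcium-binding protein gene, read 35.5 and 29.1 FPKM and did not pass the test. The 8 T and NK cell markers summed to 8.12 to 8.64 FPKM in WT and 10.0 to 10.8 in the libraries labelled KO. Of these 8, 0 were called by edgeR and 2 (Trac and Lck) had an unadjusted edgeR p under 0.05. Over the whole table, 4301 of 16256 tested genes were under that limit. The 8 stromal markers were each below 1 FPKM and summed to 1.76 to 2.26 FPKM in WT and 1.87 to 2.12 in the libraries labelled KO. The 6 eosinophil markers, 4 of them at 0 (Prg2, Prg3, Epx and Il5ra), summed to 0.957 to 1.29 and 0.690 to 0.863 FPKM, the 5 B cell markers to 2.03 to 2.15 and 1.62 to 1.82, and the 6 dendritic cell markers to 1.23 to 1.75 and 1.599 to 1.896, with Siglech at 0. The macrophage, neutrophil, T and NK cell, megakaryocyte, eosinophil and B cell sums did not overlap between the groups, nor did Ptgs2, Ptges and Alox5ap. Among single tested genes, 33.8% had FPKM that did not overlap. The eosinophil sum was mostly Ccr3 and the B cell sum mostly Cd79b. That of the macrophage list was mostly Lyz2, and Mmp8 was the largest entry of the neutrophil sum. In both lists 10 genes were tested, 5 with a positive and 5 with a negative log2 fold change. The direction of either sum is therefore not that of its list as a whole. The part of the marker sums in the results for Ptgs2, Ptges and Alox5ap was not tested.

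The genes whose log2 CPM (counts scaled to library size) ran most like those of Ptgs1 over the 6 libraries were Prnp (r = 0.99), D230025D16Rik (0.96) and Serinc1 (0.96). For Alox5 they were Ap1m1 (0.98), Mr1 (0.97) and Prpf6 (0.96). These are the highest Pearson correlations among 6279 genes with a mean of at least 5 FPKM, over libraries that share their scaling, and 25 and 27 genes exceeded 0.9 for Ptgs1 and Alox5.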

How the data were processed

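Poly(A) RNA of 6 macrophage libraries was measured. The tools named in the submitters' processing notes are StringTie 1.3.4d, HISAT2 2.0.4 and cutadapt 1.9, with mm10; annotation, strand setting and filters were not given in the sources used here. As values, the authors deposited FPKM per gene and library, and a second value per the file headers, an estimated count (whole numbers with totals that differ between libraries). Low counts (1 to 20) were a multiple of 4 in 36.9% to 40.4% of cases against 25% for an even spread, so they were treated as estimates; the files write 0.0001 FPKM where the count is 0, called listed at 0 here.

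The test, labelled KO against WT over the whole table, was that of edgeR 4.0.16 (R 4.3.3, TMM, filterByExpr with minimum count 10 and total 15, glmQLFit and glmQLFTest) on rounded counts, and the procedure was tested on simulated data. FPKM is given as mean ± SD of 3 libraries. Alternatives were DESeq2 1.42.0, limma 3.58.1, other filters and scaling, a replicate block and each library left out. The members and lists were chosen with earlier results of these data known. Named besides the members were Mettl3, up to 5 called genes per pathway list by adjusted p (or the 2 with the highest FPKM), up to 3 top genes per marker list and the 3 genes most like Ptgs1 and Alox5. Sequences are from RefSeq (GRCm38.p6) and GENCODE M21, of the same build.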

Additional observations from a re-analysis of the deposited data

How the results depend on the processing

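The fall of Alox5ap and the rises of Pla2g4a, Pla2g7, Dpep2, Slco3a1 and Fpr2, with the falls of Hpgds and Abcc1, kept their direction and call in all 13 alternatives. The number of members called higher, 2, became 1 with no filter on low counts and in limma on log2(FPKM + 0.1), and 0 to 1 with 1 library left out. With the replicate number as a block, edgeR called 0 members higher (2 at an unadjusted p under 0.05; DESeq2 without the block called 2; adjusted p = 0.0648 for Ptgs2 and 0.101 for Ptges), 3 pathway genes lower, and 552 genes higher and 460 lower over the whole table. The correlations of deviations of same-numbered libraries were -0.02, -0.01 and 0.02, and only the libraries numbered 3 correlated best with each other. Values this near 0 show no shared deviation by number. They cannot tell whether the samples were paired by design, which the labels do not say. With 1 library left out, 683 to 744 genes were called higher and 534 to 614 lower, against 1139 and 921, and 2 to 4 pathway genes were called lower, against 7; these fits hold fewer samples. The log2 fold changes that turned sign were those of Mettl3 (-0.066 to 0.11), Ptges3 (-0.064 to 0.032) and Alox5 (-0.37 to 0.10), each only with 1 library left out. On the log2(FPKM + 1) scale, which compresses low levels, those of Ptgs2 and Dagla were 0.28 and -0.22. The Ptgs2 share rose by 3.07 to 4.67 percentage points with 1 library left out and by 4.48 on counts. At 25 to 105 estimated counts per library, changes of Alox5 and Ltc4s within their 95% limits were not detectable.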

Other observations

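Some pathway genes that did not pass the test varied widely within a group; those given here are examples, chosen after their values were seen. Ptger4, which encodes a prostaglandin E receptor, read 10.1 FPKM in each WT library and 10.6, 6.74 and 7.02 in KO replicates 1, 2 and 3. Acsl1, a gene for activation of fatty acids, read 32.6, 32.0 and 32.0 FPKM in WT and 31.9, 48.7 and 29.3 in the libraries labelled KO. Ptgr2, a prostaglandin reductase gene, read 7.69, 4.74 and 4.63 FPKM in WT and 4.14, 7.01 and 6.36 in the libraries labelled KO. Cbr1, a carbonyl reductase gene whose product acts on prostaglandin E, read 9.95, 5.48 and 10.3 FPKM in WT and 3.23, 6.38 and 2.13 in the libraries labelled KO. It differed by -1.15 on the log2 scale (SE 0.43) at an edgeR adjusted p of 0.152.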
